A study of Homo sapiens with 48 samples.

Results

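The 44 ribosome biogenesis genes described here were chosen by name from the deposited count table, which lists 58302 genes, and all 44 passed the filter on low counts in every fit. They encode nucleolar proteins and subunits or factors of RNA polymerase I. The libraries came from AMO1, a human multiple myeloma line derived from a plasmacytoma, that carried doxycycline (Dox)-inducible short hairpin RNAs integrated by a piggyBac vector. Messenger RNA was sequenced in 48 libraries, 3 from each of 16 groups, formed by 4 clones at 0, 24, 48 and 72 h of Dox (0.2 µg/ml). A pair of clones, clone 1 and clone 3, carried hairpins against IRE1 (genotype IRE1 sh7,8,9), and another pair, clone 1 and clone 18, carried hairpins against XBP1 (genotype XBP1 sh4,6,7). The 0 h libraries received no Dox, and all cells carried their hairpin construct. Each line was 1 clone, and a clone with a control hairpin was not analysed here, so any effect of Dox or of a hairpin in general is part of every change given below. In bulk RNA, fewer cells that use a gene and less RNA per cell cannot be told apart.

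Ribosomes are built in the nucleolus, where RNA polymerase I transcribes the precursor of most ribosomal RNAs. Small nucleolar ribonucleoproteins (snoRNPs) guide the chemical modification of that precursor, box C/D particles for methylation and box H/ACA particles for pseudouridylation, while large sets of assembly factors cut, fold and export the precursors of the small (40S) and large (60S) subunits. Many of these genes are known targets of the transcription factor MYC, and plasma cells, which secrete much protein, depend on abundant ribosomes. IRE1, encoded by ERN1, is a sensor of unfolded protein in the endoplasmic reticulum whose nuclease activity splices the mRNA of the transcription factor XBP1.

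Promoter sequence was inspected because MYC and its partner MAX read the E-box CACGTG, and ETS factors read words around CCGGAA that are frequent in promoters of housekeeping genes. RefSeq promoters of GRCh38.p14, from 250 bases before to 50 bases after the gene start, matched 38 of the 44 genes. Searched on both strands, CACGTG was present in 14 of the 38 (36.8%), against 7.43% of all 27305 promoters in the table and 10.0% of the 10501 promoters of genes tested here. CCGGAA was present in 20 of the 38 (52.6%), against 17.6% and 29.0%. The words do not overlap each other, and a match is a description of letters only. The promoters of NPM1, DDX21 and GAR1 are printed because these genes were among the 5 that fell most in both shIRE1 clones and had a RefSeq entry. Capitals mark CCGGAA, or TTCCGG where it lies on the other strand. None of these promoters held CACGTG and the NPM1 promoter held neither word. The match lies 60 bases before the start of DDX21 and 27 bases before that of GAR1. The windows are chr5:171387599-171387898, chr10:68955920-68956219 and chr4:109815260-109815559, all on the plus strand.
NPM1: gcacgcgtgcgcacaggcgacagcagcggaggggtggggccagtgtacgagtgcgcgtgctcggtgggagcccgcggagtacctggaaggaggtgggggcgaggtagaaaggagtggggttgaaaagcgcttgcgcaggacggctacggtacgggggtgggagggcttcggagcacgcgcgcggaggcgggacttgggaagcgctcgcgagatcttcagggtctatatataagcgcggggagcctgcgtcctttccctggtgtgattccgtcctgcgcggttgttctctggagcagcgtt
DDX21: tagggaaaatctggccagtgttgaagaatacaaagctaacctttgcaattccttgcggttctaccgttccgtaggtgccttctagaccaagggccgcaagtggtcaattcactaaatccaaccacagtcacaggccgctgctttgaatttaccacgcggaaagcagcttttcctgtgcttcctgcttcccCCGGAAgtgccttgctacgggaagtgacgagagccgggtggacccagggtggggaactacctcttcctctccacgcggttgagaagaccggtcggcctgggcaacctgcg
GAR1: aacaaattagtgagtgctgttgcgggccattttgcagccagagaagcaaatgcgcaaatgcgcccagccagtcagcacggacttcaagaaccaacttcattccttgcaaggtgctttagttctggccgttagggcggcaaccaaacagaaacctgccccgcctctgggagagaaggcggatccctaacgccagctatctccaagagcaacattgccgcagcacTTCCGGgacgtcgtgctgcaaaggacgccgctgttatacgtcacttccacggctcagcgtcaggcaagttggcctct

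Libraries held 19177855 to 40767202 counts, so that 1 count was worth 0.0240 to 0.0559 CPM (counts scaled to a common library size with TMM factors, the unit of every level below). The plasma cell genes SDC1 (5105 to 15245 CPM) and CD38 (184 to 293 CPM) were abundant in every library, and of 8 markers of other cell types only CD3E (4.59 to 17.3 CPM) exceeded 4 CPM in any. ERN1 mRNA fell from a mean of 152 to 102 CPM at 72 h in shIRE1 clone 1 (log2 fold change -0.58) and from 438 to 125 CPM in clone 3 (-1.82). XBP1 mRNA fell by 2.32 on the log2 scale in shXBP1 clone 1 and by 2.16 in clone 18. It was also lower at 72 h in shIRE1 clones 1 and 3 (-0.38 and -0.86). ERN1 mRNA at 72 h was higher in shXBP1 clone 1 (0.72) and lower in clone 18 (-0.29). Without clone 18, 72 h replicate 3, described next, the clone 18 changes were -2.05 for XBP1 and -0.22 for ERN1. A library labelled shXBP1 clone 18, 72 h replicate 3 stood apart: it lay on the shXBP1 clone 1 side for 249 of 249 genes that separate those clones, with a correlation across genes of 0.996 to clone 1 and 0.979 to its own group. Another, shIRE1 clone 3, 24 h replicate 1, lay nearer to shIRE1 clone 1 for 133 of 144 such genes (92.4%). Clone 3, 72 h replicate 3 did so for 30 of 112 (26.8%). These libraries were kept under their labels, and most counts and main values that rest on the first or the second are also given without it.

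The clones differed in these genes before Dox was added. At 0 h, 37 of the 44 genes were higher in shIRE1 clone 1 than in clone 3 and none was lower (also at an unadjusted p under 0.05, edgeR), with 19.2% of all genes tested higher and 21.4% lower. The median log2 difference was 0.46, from 0.06 for FBL, the methyltransferase of box C/D snoRNPs, to 0.80 for MRTO4, a 60S assembly factor. Likewise 38 genes were higher in shXBP1 clone 1 than in clone 18 and none was lower, nor at an unadjusted p under 0.05 (24.5% of all genes higher, 26.8% lower), with a median of 0.33 and a range from -0.10 for TAF1D, a polymerase I factor, to 1.09 for PPAN, a 60S assembly factor. MYC mRNA was also higher at 0 h, by 0.35 in shIRE1 clone 1 and by 0.77 in shXBP1 clone 1 (edgeR, adjusted p = 0.00163 and 3.96e-09). ERN1 mRNA was lower at 0 h in shIRE1 clone 1 than in clone 3 (log2 difference -1.52) and in shXBP1 clone 1 than in clone 18 (-1.14). The part of MYC or ERN1 in the difference between the clones was not tested.

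**Figure D1:**
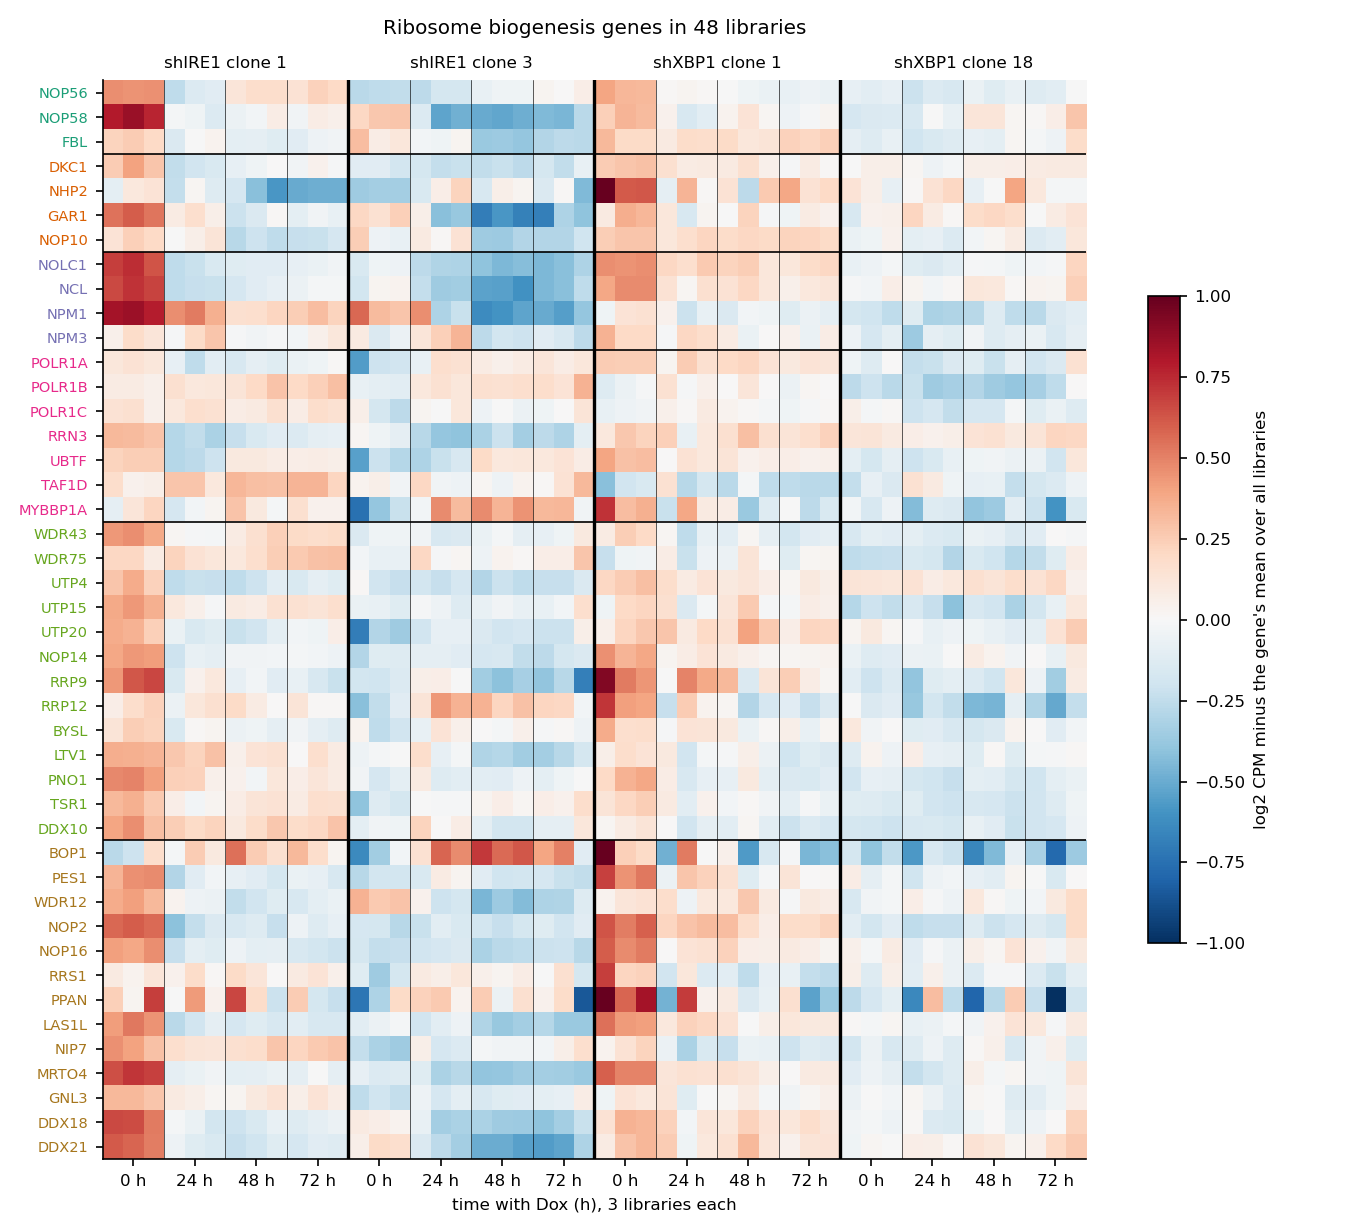
Log2 CPM of each of the 44 genes in all 48 libraries, as the difference from the gene's mean over all libraries, with genes grouped by role and libraries ordered by clone and time with Dox (h), 3 libraries each. The 0 h libraries of shIRE1 clone 1 and shXBP1 clone 1 stand higher than those of the other clones, with medians of 0.46 and 0.33 for the differences between clones.

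Summed over the 44 genes, the share of all counts at 0 h was 1.27% in shIRE1 clone 1, 0.876% in clone 3, 1.12% in shXBP1 clone 1 and 0.850% in clone 18 (means, n = 3). With Dox it went to 0.929%, 0.968% and 0.997% at 24, 48 and 72 h in shIRE1 clone 1. Abundant genes weigh most in this sum, among them NCL. The mean of NCL in that clone was 4543 CPM at 0 h and 2400 CPM at 24 h. Clone 3 had shares of 0.881%, 0.839% and 0.875%, or 0.862% at 24 h without the library nearer to clone 1. The shIRE1 clones were thus further apart in this share at 0 h than at any later time. In shXBP1 clone 1 the shares were 0.975%, 0.990% and 0.964%, and in clone 18 they were 0.860%, 0.898% and 0.937%. Without the clone 18 library that resembled clone 1 the share at 72 h was 0.901%.

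**Figure D2:**
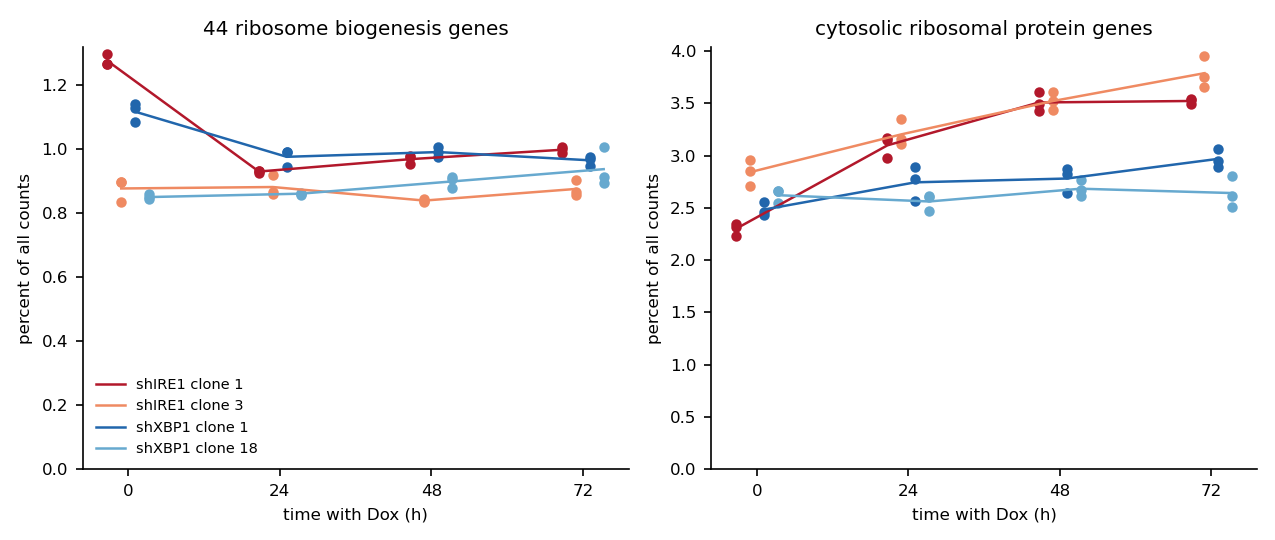
Percent of all counts taken by the 44 ribosome biogenesis genes and by 79 cytosolic ribosomal protein genes, by time with Dox (h), with 1 point per library and lines through the group means. The biogenesis share dropped from 1.27% to 0.929% within 24 h in shIRE1 clone 1, while its ribosomal protein share went from 2.30% to 3.10%. Abundant genes such as NCL weigh most in the biogenesis share.

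Within 24 h of Dox, 32 of the 44 genes fell in shIRE1 clone 1 and none rose by edgeR's quasi-likelihood test (1 was higher at an unadjusted p under 0.05), where 29% of all genes tested fell and 32.4% rose. The counts were 35 lower and 3 higher at 48 h (31.5% and 33.9% of all genes) and 34 lower and 3 higher at 72 h (31.1% and 32.5%). Median log2 fold changes of the 44 were -0.36, -0.34 and -0.32, with medians of 0.04, 0.03 and 0.02 over all genes tested. The 3 that rose at 48 h were BOP1, POLR1B and TAF1D, and at 72 h TAF1D, POLR1B and WDR75. The deepest fall at 24 h was that of NCL, nucleolin, at -0.92. At 72 h, 11 genes were lower by at least 1.5-fold and none was higher by as much (13.4% and 17.4% of all genes).

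In clone 3 the genes moved in both directions. At 24 h, 10 genes fell and 12 rose, where 23.3% of all genes fell and 22.8% rose. At 48 h, 16 fell and 12 rose (31.6% and 31.6%), and at 72 h 15 fell and 13 rose (30.5% and 29.7%). The medians were 0.05, -0.01 and 0.04, within 0.1 of those of all genes tested. The range at 72 h ran from -0.89 for NPM1 to 0.64 for MYBBP1A, with 4 genes lower and 2 higher by at least 1.5-fold (16% and 17.9% of all genes). Without the 24 h library that stood nearer to clone 1, 11 genes fell and 13 rose at 24 h (24.3% and 23.6% of all genes), with a median of 0.07. The 24, 48 and 72 h comparisons of a clone share its 0 h libraries.

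**Figure D3:**
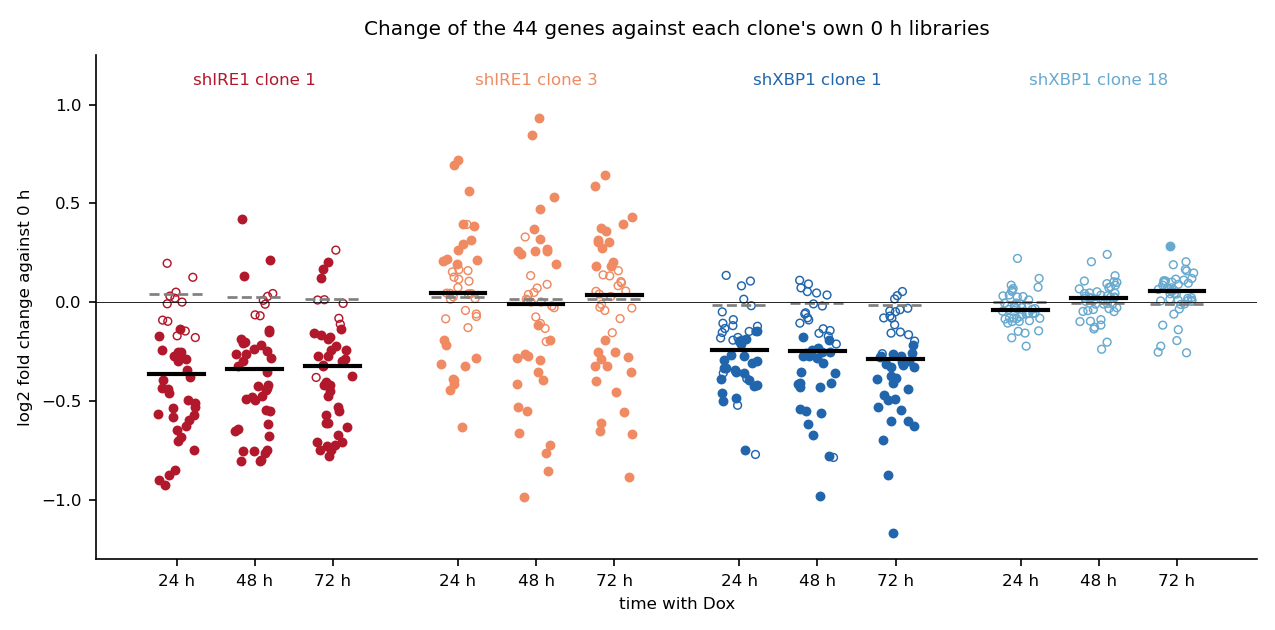
Log2 fold change of each of the 44 genes against the 0 h libraries of its own clone, by clone and time with Dox (1 point per gene, filled where past the threshold, with a black line at their median and a dashed grey line at that of all genes). The points of shIRE1 clone 1 lie mostly below 0 at each time (medians -0.36, -0.34 and -0.32), while those of clone 3 spread to both sides.

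At 72 h, 15 genes were lower in both shIRE1 clones (21.4% of all genes tested in both), 2 were higher in both (20.5%) and 7 moved in opposite directions (4.12%). The 15 were NOP58, FBL, GAR1, NOP10, NPM1, NCL, NOLC1, RRN3, RRP9, LTV1, DDX18, DDX21, LAS1L, MRTO4 and WDR12. The 2 were POLR1B and WDR75. Those that moved in opposite directions, GNL3, NIP7, NOP56, POLR1A, TSR1, UBTF and UTP20, were all lower in clone 1 and higher in clone 3.

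**Figure D4:**
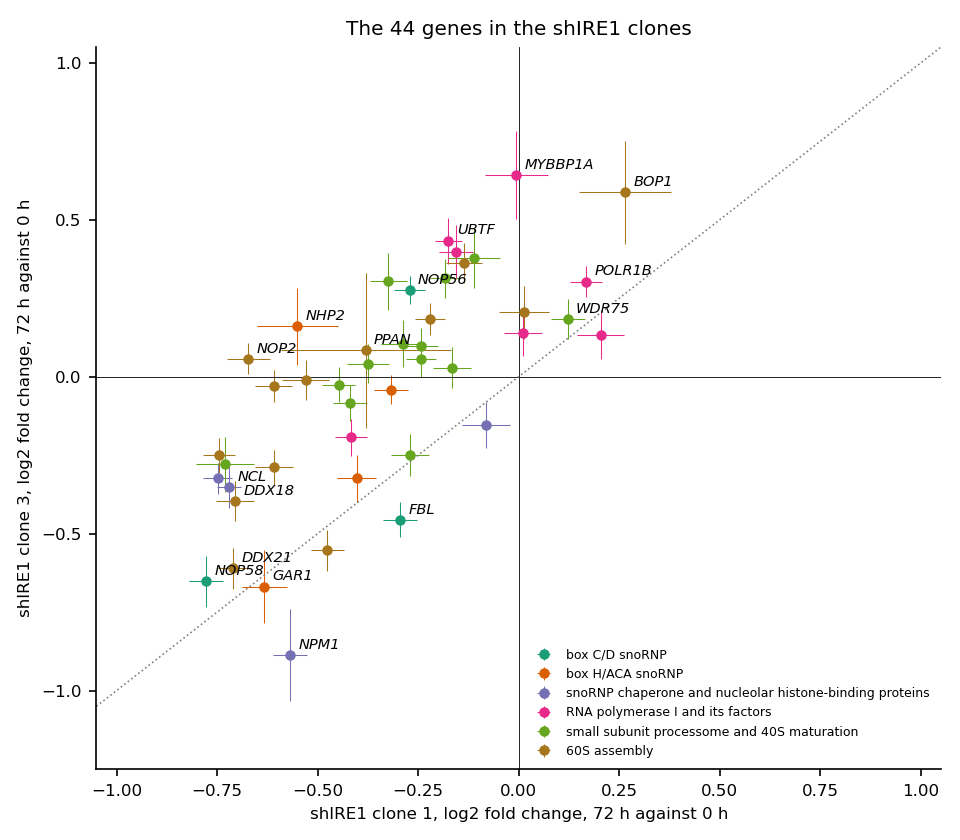
Log2 fold change at 72 h against 0 h in shIRE1 clone 1 (horizontal axis) and clone 3 (vertical axis), 1 point per gene for the 44 genes, coloured by role, with bars of 1 SE and a dotted line of equal change. The 15 genes lower in both clones lie in the lower left and the 7 that moved in opposite directions in the upper left.

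Of the box C/D snoRNP proteins, NOP58 and FBL fell in both shIRE1 clones. NOP58, a core protein of the particle, stood at 473, 497 and 463 CPM in the 0 h libraries of shIRE1 clone 1 and at 270.3, 265 and 249 CPM at 24 h. At 72 h it read 267, 288 and 283 CPM. Every library with Dox lay far below every 0 h library, and the log2 fold change was -0.87 ± 0.042 (SE, n = 3 libraries a group here and below) at 24 h and -0.78 ± 0.042 at 72 h (edgeR adjusted p = 1.80e-12, then 7.80e-12). In clone 3 NOP58 went from 316, 329 and 332 CPM at 0 h to 248, 189 and 196 CPM at 24 h and 201, 199 and 227 CPM at 72 h. The groups again did not overlap, the highest 24 h value being that of the library nearer to clone 1, and the change was -0.63 ± 0.081 at 24 h and -0.65 ± 0.081 at 72 h (adjusted p = 1.49e-05, then 5.56e-06). Without that library the 24 h change was -0.76. FBL changed by -0.30 and -0.46 at 72 h in clones 1 and 3. NOP56, the partner of NOP58 in the particle, changed by -0.27 in clone 1 and by 0.28 in clone 3, both past the threshold.

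All 4 box H/ACA proteins fell at 72 h in shIRE1 clone 1, and GAR1 and NOP10 fell in clone 3. GAR1, a protein of the mature particle, read 45.2, 47.2 and 45.0 CPM at 0 h and 29.0, 30.3 and 29.5 CPM at 72 h in clone 1. In clone 3 it read 35.8, 34.6 and 36.5 CPM at 0 h and 19.3, 25.1 and 23.5 CPM at 72 h. No library at 72 h reached a 0 h value of its clone, and the log2 fold change was -0.63 ± 0.057 in clone 1 and -0.67 ± 0.12 in clone 3 (adjusted p = 1.25e-08 and 1.37e-04). NOP10 changed by -0.40 and -0.32. DKC1, the pseudouridine synthase, changed by -0.32 in clone 1 and by -0.04 in clone 3, the latter not past the threshold.

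NHP2, the remaining box H/ACA protein, was among the 2 genes whose response differed most between the shIRE1 clones at 72 h. It read 14.7, 16.9 and 17.4 CPM at 0 h and 11.1, 11.2 and 11.2 CPM at 72 h in clone 1. Clone 3 held 12.3, 12.4 and 12.5 CPM at 0 h and 14.3, 15.9 and 11.6 CPM at 72 h. The groups did not overlap in clone 1 but did in clone 3, where replicate 3 at 72 h lay below every 0 h library; without it the change there was 0.27 (adjusted p = 0.0418). The log2 fold change was -0.55 ± 0.10 in clone 1 (adjusted p = 1.07e-04) and 0.16 ± 0.12 in clone 3 (adjusted p = 0.273), and the clones' responses differed by -0.72 ± 0.21 (adjusted p = 0.00722).

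Among the nucleolar chaperones and histone-binding proteins, NPM1, NCL and NOLC1 fell in both shIRE1 clones. NPM1, nucleophosmin, an abundant nucleolar protein that binds histones and ribosomal proteins, read 219, 222 and 212 CPM at 0 h and 146, 152 and 143 CPM at 72 h in clone 1. In clone 3 it read 183, 153 and 149 CPM at 0 h, then 169, 99.3 and 105 CPM at 24 h and 86.6, 83.9 and 94.0 CPM at 72 h. The 72 h libraries lay below all 0 h libraries in both clones, while at 24 h in clone 3 the library nearer to clone 1 overlapped the 0 h range. The change at 24 h in clone 3 was -0.39 (adjusted p = 0.0412), and without that library -0.67 (adjusted p = 8.70e-06). That 24 h call was lost with DESeq2 (adjusted p = 0.104), with only the 6 libraries compared (0.0901), and on leaving out either of the 0 h libraries numbered 1 and 2 (-0.30 and -0.43) or of the 24 h libraries numbered 2 and 3 (-0.25 and -0.28), at adjusted p = 0.0552 to 0.186. The change at 72 h was -0.57 ± 0.043 in clone 1 and -0.89 ± 0.15 in clone 3 (adjusted p = 9.97e-10 and 9.60e-05). NPM1 has 49 pseudogenes named after it in the GENCODE annotation, more than any other of the 44 genes, and how reads shared with them were counted was not stated for these libraries. NCL changed by -0.72 and -0.35, and NOLC1, a snoRNP chaperone, by -0.75 and -0.32. NPM3 did not pass the threshold at 72 h in either clone (-0.08 and -0.15).

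RNA polymerase I genes changed in both directions. Of 7, 3 fell and 2 rose in shIRE1 clone 1 at 72 h, and 1 fell and 4 rose in clone 3. POLR1B, the second largest subunit of the polymerase, read 164, 164 and 160 CPM at 0 h and 177, 182 and 190 CPM at 72 h in clone 1. In clone 3 it went from 147, 145 and 143 CPM at 0 h to 175, 169 and 196 CPM at 72 h. The 72 h values lay above all 0 h values in both clones, and the change was 0.17 ± 0.039 in clone 1 and 0.30 ± 0.050 in clone 3 (adjusted p = 0.00109 and 8.98e-05). RRN3, which recruits the polymerase to its promoter, was the member of this group that fell in both clones (-0.42 and -0.19). POLR1A, the largest subunit, and UBTF, which binds ribosomal DNA, fell in clone 1 (-0.16 and -0.17) and rose in clone 3 (0.40 and 0.43). TAF1D rose in clone 1 (0.20, against 0.13 in clone 3), and MYBBP1A, a nucleolar regulator, rose in clone 3 (0.64, against -0.01 in clone 1). POLR1C, a subunit shared with RNA polymerase III, was at 0.01 and 0.14, neither past the threshold.

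For the small subunit, 11 of 13 processome and 40S maturation genes fell and 1 rose in shIRE1 clone 1 at 72 h, against 2 that fell and 4 that rose in clone 3. RRP9, a protein of the U3 snoRNP, fell by 0.73 and 0.28 in clones 1 and 3, and LTV1, a 40S export factor, by 0.27 and 0.25. WDR75, a processome subunit that acts early in transcription and processing, was the gene that rose in clone 1 and also rose in clone 3. It read 233, 233 and 213 CPM at 0 h and 243, 248 and 249 CPM at 72 h in clone 1, and 198, 192 and 192 CPM at 0 h and 211, 211 and 245 CPM at 72 h in clone 3. The 72 h libraries were above the 0 h libraries in both clones by a small margin, and the change was 0.12 ± 0.042 and 0.18 ± 0.063 (adjusted p = 0.0180 and 0.0208). These calls were near the threshold and were lost in several settings. In clone 1 this held without 0 h replicate 3 (0.08, edgeR adjusted p = 0.115) or 72 h replicate 3 (0.0518). It also held with all 48 libraries (0.146) and with DESeq2 (DESeq2 adjusted p = 0.0562). In clone 3 it held without 72 h replicate 3 (0.11, edgeR adjusted p = 0.137), 0 h replicate 2 (0.0759) or 0 h replicate 3 (0.0770).  In clone 1, NOP14 fell by 0.45, UTP4 by 0.42, PNO1 by 0.38, BYSL by 0.29, WDR43 and UTP15 by 0.24 each and DDX10 by 0.17. None of these 7 passed the threshold in clone 3, where they lay between -0.08 and 0.10. UTP20 (-0.32 and 0.30) and TSR1 (-0.18 and 0.31) fell in clone 1 and rose in clone 3. RRP12, a 40S export factor, rose in clone 3 (0.38) and was at -0.11 in clone 1.

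Of 13 genes for assembly of the 60S subunit, 10 fell and none rose in shIRE1 clone 1 at 72 h, and 5 fell and 4 rose in clone 3. DDX21, an RNA helicase of the nucleolus, read 964, 944 and 897 CPM at 0 h and 560, 581 and 577 CPM at 72 h in clone 1. Its clone 3 libraries held 657, 720 and 707 CPM at 0 h and 429, 438 and 510.1 CPM at 72 h. Each 72 h library lay below every 0 h library of its clone, and the log2 fold change was -0.71 ± 0.037 and -0.61 ± 0.065 (adjusted p = 5.59e-12 and 1.08e-06). DDX18, another nucleolar RNA helicase, read 212, 210.4 and 192 CPM at 0 h and 123, 126 and 129 CPM at 72 h in clone 1. The clone 3 values were 143, 141 and 137 CPM at 0 h and 102, 106 and 115 CPM at 72 h. These groups did not overlap either, with changes of -0.71 ± 0.047 and -0.40 ± 0.065 (adjusted p = 1.99e-10 and 8.86e-05).

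NOP2, a methyltransferase of the large ribosomal RNA, was the gene whose response differed most between the shIRE1 clones at 72 h. It read 270.0, 277 and 269.8 CPM at 0 h and 176, 167 and 171 CPM at 72 h in clone 1. Clone 3 held 162, 161 and 149.7 CPM at 0 h and 168, 159 and 168 CPM at 72 h. At 72 h the clones differed by 0.05 (adjusted p = 0.639) after a difference of 0.79 at 0 h, and the difference of responses was -0.74 ± 0.090 (adjusted p = 2.68e-08). The change was -0.67 ± 0.054 in clone 1 and 0.06 ± 0.049 in clone 3. Of the PeBoW complex, which matures the large ribosomal RNA, WDR12 fell in both clones (-0.48 and -0.55), PES1 fell in clone 1 (-0.53, against -0.01), and BOP1 rose in clone 3 (0.59, against 0.26 in clone 1, which did not pass the threshold). MRTO4 (-0.75 and -0.25) and LAS1L (-0.61 and -0.29) fell in both. NOP16 fell in clone 1 (-0.61, against -0.03). GNL3, nucleostemin (-0.22 and 0.18), and NIP7 (-0.14 and 0.36) fell in clone 1 and rose in clone 3. RRS1 rose in clone 3 (0.20, against 0.01), and PPAN did not pass the threshold in either clone (-0.38 and 0.08).

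**Figure D5:**
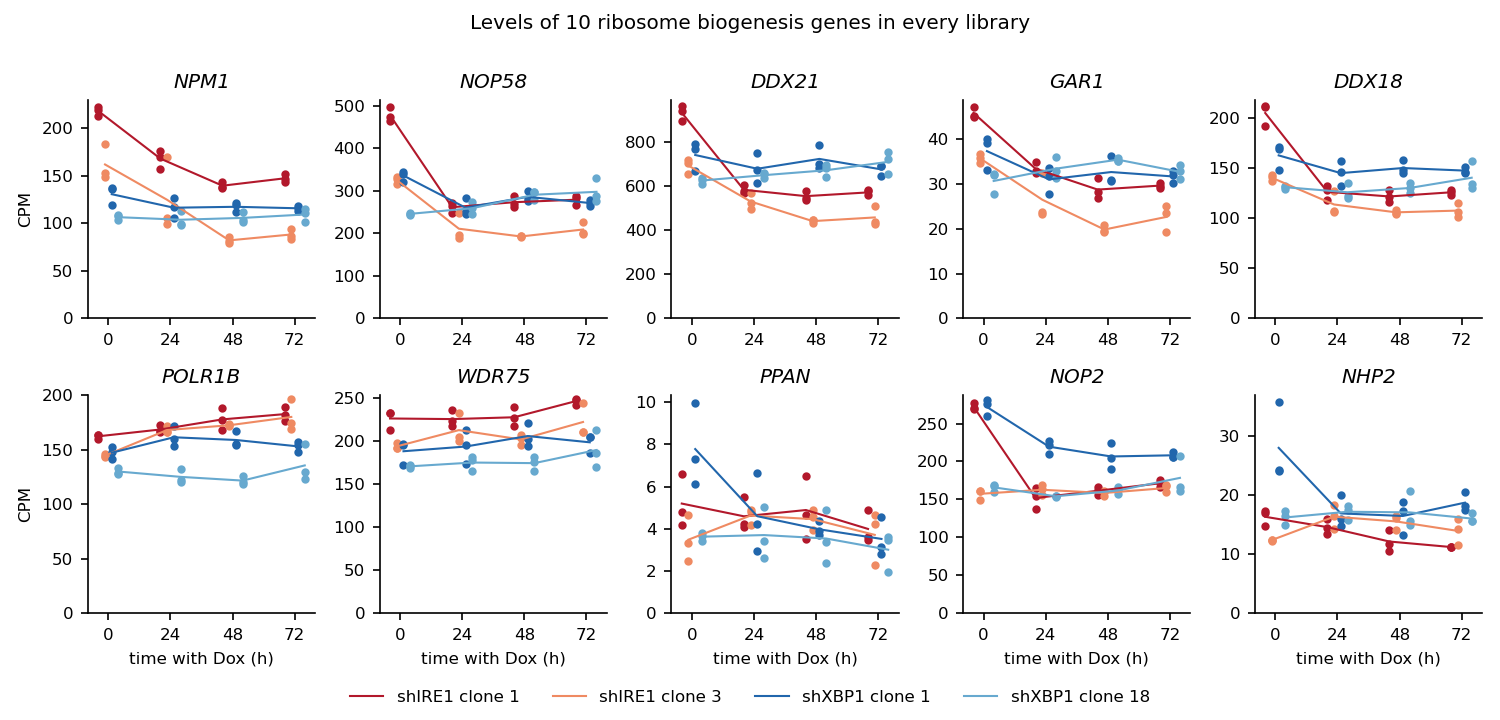
CPM of 10 ribosome biogenesis genes in every library, by time with Dox (h), with 1 point per library and lines through the group means for the 4 clones. NOP2 in shIRE1 clone 1 drops from 270.0, 277 and 269.8 CPM to the level of clone 3, while NOP58, DDX21 and NPM1 drop in both shIRE1 clones.

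From 24 to 72 h, a comparison that uses no 0 h library, 5 of the 44 genes fell and 12 rose in shIRE1 clone 1 (13.9% and 15.2% of all genes), with a median of 0.04. The 5 were NHP2, NOP10, NPM1, LTV1 and GAR1, among them 3 of the 4 box H/ACA proteins, and the 12 included NOP56 (0.36), UBTF (0.32) and NCL (0.20). In clone 3, 9 fell and 2 rose (17.1% and 16.4% of all genes), with a median of -0.07. NPM1 had a change of -0.50 there, and NOP56 and UBTF were the 2 that rose. Without the 24 h library nearer to clone 1, 10 fell and 4 rose (16.9% and 15.7%), the change of NPM1 was -0.22, and DDX21 was no longer among those that fell. This alternative was added after the library was seen to stand apart.

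Differences between the responses of the shIRE1 clones were tested directly at 72 h. The change was more negative in clone 1 for 27 of the 44 genes and in clone 3 for none, where 12% and 15.5% of all genes differed in these directions, and the median difference was -0.35. At an unadjusted p under 0.05 the change was more negative in clone 3 for 2. The genes with the largest falls in both clones, NOP58 (-0.14), DDX21 (-0.11), GAR1 (0.03) and NPM1 (0.31), had differences that did not pass the threshold, while DDX18 did (-0.32, adjusted p = 0.0116). The difference of responses contains the 0 h libraries of both clones, which already differed. At 72 h itself, in a comparison added after the 0 h result was seen, 17 genes were higher in clone 1 than in clone 3 and none was lower, 1 being lower at an unadjusted p under 0.05 (8.8% and 5.91% of all genes), with a median of 0.13 and a range from -0.32 for NHP2 to 0.74 for NPM1.

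XBP1 silencing was followed by lower levels of many of these genes in clone 1 and of none past the threshold in clone 18. In shXBP1 clone 1, 22, 25 and 28 of the 44 genes fell at 24, 48 and 72 h, where 12.8%, 15.5% and 16.8% of all genes fell. None rose at any time by edgeR's quasi-likelihood test, nor at an unadjusted p under 0.05, where 13.9%, 16.6% and 16.8% of all genes rose. The medians were -0.24, -0.25 and -0.29. At 72 h 10 of the 13 small subunit genes and 9 of the 13 for the 60S subunit fell, with 3 of 4 chaperones, 2 of 3 box C/D proteins, 2 of 4 box H/ACA proteins and 2 of 7 polymerase I genes, UBTF (-0.30) and MYBBP1A (-0.63). NPM1 (-0.20), DDX21 (-0.16), DDX18 (-0.16) and GAR1 (-0.26), which fell in both shIRE1 clones, did not pass the threshold here at 72 h. Without 0 h replicate 1, described next, NPM1 (-0.25), DDX18 (-0.21) and GAR1 (-0.33) did pass it.

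PPAN, a 60S assembly factor, had the largest fall in shXBP1 clone 1. It read 9.95, 6.12 and 7.29 CPM at 0 h and 4.58, 2.83 and 3.15 CPM at 72 h, which did not overlap, and the change was -1.17 ± 0.28 (adjusted p = 0.00808). Its exons are shared in the annotation with P2RY11 and a read-through transcript, so its counts are uncertain. Replicate 1 at 0 h held the highest 0 h value of PPAN, NHP2, BOP1, RRP9, RRP12, RRS1 and MYBBP1A. BOP1, for example, read 127 CPM there against 70.0 and 67.9 CPM in the other 0 h libraries, and 58.9, 43.4 and 44.4 CPM at 72 h. Without that library 22, 24 and 25 genes were called at 24, 48 and 72 h (shares of all genes in these fits not given). At 72 h PPAN remained past the threshold (-0.94, adjusted p = 0.0324), while BOP1 (-0.51, adjusted p = 0.164), NHP2 (-0.38, adjusted p = 0.102), RRP9 (-0.38, adjusted p = 0.0991) and MYBBP1A (-0.48, adjusted p = 0.0510) did not.

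No gene was called in shXBP1 clone 18 at 24 or 48 h by edgeR's quasi-likelihood test, where 1.3% and 3.5% of all genes fell and 0.291% and 2.28% rose. At an unadjusted p under 0.05, 2 were lower and 1 higher at 24 h, and 2 lower and 3 higher at 48 h. DESeq2 called POLR1C lower at 24 h and NOP58 higher at 48 h, and limma on the deposited log2 table called none. At 72 h NOP58 rose and none fell (4.41% and 5.55% of all genes), while 1 gene was lower at an unadjusted p under 0.05, DESeq2 also called DDX21 higher, and limma called NOP58. NOP58 read 243, 247 and 248 CPM at 0 h and 276, 287 and 331 CPM at 72 h, the groups did not overlap, and the change was 0.28 ± 0.070 (adjusted p = 0.0249). The highest 72 h value was that of the library that resembled shXBP1 clone 1, and without it the change was 0.20 (adjusted p = 0.0430). The call was lost without any 1 of the 0 h libraries (adjusted p = 0.0637 to 0.0803), and without 72 h replicate 1, 5 genes were called, all higher. The share of all genes called in that last fit is not given. Without the library that resembled clone 1, that is 72 h replicate 3, POLR1C fell at 24 h (-0.22) and NOP58 rose at 48 h (0.24), where 3.33% and 7.16% of all genes fell and 1.46% and 5.78% rose, and at 72 h NOP58 was again the 1 gene called (4.48% of all genes fell and 3.09% rose). 

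The responses of the shXBP1 clones differed at 72 h for 25 genes, all more negative in clone 1 (none less negative at an unadjusted p under 0.05), where 11% of all genes tested were more negative there and 13.6% less negative. The median difference was -0.32, and among the 25 RRP9 (-0.59), NOP58 (-0.58), MRTO4 (-0.57) and NHP2 (-0.57) had the largest. PPAN differed by -0.89 and did not pass the threshold. At 72 h the falls of RRP9 and NHP2 in clone 1 were not called without its 0 h replicate 1. Without the clone 18 library that resembled clone 1, the count was 23. In that fit 9.13% of all genes were more negative in clone 1 and 10.7% less negative. At 72 h itself, 4 genes were higher in clone 1 than in clone 18, namely POLR1B, FBL, NOP2 and NOP10, and none was lower, 1 being lower at an unadjusted p under 0.05 (5.28% and 9.18% of all genes). Without that library 7 were higher and none was lower (11% and 13.8% of all genes).

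IRE1 and XBP1 silencing were compared through the mean response of each pair of clones. The SE and adjusted p of this test rest on the spread between libraries of a group. They leave out variation between clones, of which each hairpin had only a pair. At 72 h the change with shIRE1 was more negative for 15 of the 44 genes and less negative for 10, where 27.4% and 28% of all genes differed in these directions, and the median difference was -0.01. The 15 included NOP58 (-0.69 ± 0.070, adjusted p = 5.02e-11), DDX21 (-0.68 ± 0.068), NPM1 (-0.65 ± 0.10), GAR1 (-0.57 ± 0.095), WDR12 (-0.56) and DDX18 (-0.52 ± 0.069). FBL (-0.43), NOLC1 (-0.44), NCL (-0.40), NOP10 (-0.32) and RRN3 (-0.32) were also more negative with shIRE1. Among the 10 were BOP1 (0.96), MYBBP1A (0.74), RRP12 (0.61), RRS1 (0.48), UBTF (0.24), POLR1A (0.19) and POLR1B (0.18). The count of 10 depended on the clones used. With shIRE1 clone 1 set against shXBP1 clone 1 alone, 21 genes were called at 72 h, of which 5 were less negative with shIRE1. The shares of all genes in that fit are not given. UBTF and POLR1A fell in shIRE1 clone 1 and rose in the other shIRE1 clone, so their values here average opposite changes. The high 0 h value of shXBP1 clone 1 replicate 1 enters the differences of BOP1, MYBBP1A, RRP12 and RRS1. As given above, BOP1 and MYBBP1A were no longer called in shXBP1 clone 1 without it. Without the clone 18 library that resembled clone 1, 14 genes were more negative with shIRE1 and 10 less negative (27.1% and 27.2% of all genes), and NOP58 differed by -0.66.

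Other genes of the pathway were taken from lists by function, and their counts are to be read against the shares of all genes given above for 72 h (31.1% lower and 32.5% higher in shIRE1 clone 1, 30.5% and 29.7% in clone 3, 16.8% and 16.8% in shXBP1 clone 1, 5.55% and 4.41% in clone 18). At 72 h in shIRE1 clone 1, 34 of 49 other 60S factors fell and 2 rose, from -0.91 for PA2G4 to 0.77 for NOP53. Of 45 other processome and 40S factors 29 fell and 4 rose, from -0.68 for BUD23 to 0.47 for NOP9. Of 15 other polymerase I genes 8 fell and 1 rose, with TCOF1, the treacle protein that supports polymerase I transcription, lowest at -1.22. In clone 3 the same lists gave 12 lower and 10 higher, 15 lower and 10 higher, and 7 lower and 3 higher. In shXBP1 clone 1 they gave 25 lower and 0 higher, 19 lower and 0 higher, and 6 lower and 2 higher, and in clone 18 none lower and 1, 3 and 1 higher (1, 2 and 1 without the library that resembled clone 1).

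Of the genes of the ribosomal proteins themselves, more rose than fell at 72 h in every clone but shXBP1 clone 18. Of 79 cytosolic ribosomal protein genes, 62 rose and 5 fell at 72 h in shIRE1 clone 1, with a median of 0.39 and the highest change, 1.06, for RPL13A, where 32.5% of all genes rose. In clone 3, 34 rose and 5 fell (median 0.16, against 29.7% of all genes that rose), and in shXBP1 clone 1, 35 rose and 5 fell (median 0.17). In clone 18, 1 rose and 5 fell (median -0.07). Without the library that resembled clone 1, none rose and 3 fell there (median -0.11), where 3.09% of all genes rose and 4.48% fell. The shXBP1 counts are to be read against 16.8% of all genes that rose in clone 1 and 4.41% in clone 18. Earlier in shIRE1 clone 3, 11 rose and 9 fell at 24 h (median 0.03) and 24 rose and 13 fell at 48 h. Without the 24 h library nearer to clone 1, 17 rose and 14 fell at 24 h (median 0.04). In that fit 23.6% of all genes rose and 24.3% fell. From 0 to 72 h the share of all counts taken by the ribosomal protein genes went from 2.30% to 3.52% in shIRE1 clone 1 and from 2.84% to 3.79% in clone 3. In shXBP1 clones 1 and 18 it went from 2.48% to 2.97% and from 2.62% to 2.64%. Without the clone 18 library that resembled clone 1 the last value was 2.56%. These genes have many processed pseudogenes, and reads shared with those copies may be counted elsewhere.

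MYC mRNA was measured beside these genes, and its part in their changes was not tested. In shIRE1 clone 1 it read 1663, 1744 and 1762 CPM at 0 h, 1177, 1285 and 1263 CPM at 24 h and 995, 972 and 971 CPM at 72 h, with changes of -0.48 and -0.82. For clone 3 the values were 1425, 1260.3 and 1366 CPM at 0 h and 1308, 1529 and 1464 CPM at 24 h, which overlapped (0.08, adjusted p = 0.350, and 0.14 without the library nearer to clone 1, adjusted p = 0.0754), and it fell to 831, 858 and 770.5 CPM at 72 h (-0.73). At 24 h in clone 3, 10 of the 44 genes had fallen, among them NOP58, GAR1, DDX21 and DDX18, and 12 had risen (23.3% and 22.8% of all genes). In shXBP1 clone 1 the change of MYC was -0.28 at 24 h (adjusted p = 0.0630), and by 72 h the change had reached -0.40 (adjusted p = 0.0103). Its 0 h libraries there read 1954, 1549 and 1580.5 CPM, and without the first the changes were -0.15 (adjusted p = 0.289) and -0.28 (adjusted p = 0.0477). Clone 18 had changes of 0.03, 0.02 and 0.11, none past the threshold, and without the library that resembled clone 1 the last was -0.05. Plasma cell markers also moved at 72 h, 6 of 8 lower and 1 higher in shIRE1 clone 1 (TNFRSF17 lowest at -1.21) and 8 of 8 lower in clone 3 (TNFRSF17 at -2.54). Of the markers of other cell types that passed the filter, 3 of 5 were higher and 1 lower in clone 1 (MS4A1 highest at 3.05) and 4 of 4 were higher in clone 3 (MS4A1 highest at 3.44), at levels under 4 CPM for all but CD3E. The part of these markers in the changes was not tested.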

How the data were processed

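RNA-seq counts per gene and a log2 expression table were used. Per the submitters' processing notes, the authors worked with GSNAP, R 4.1.3, edgeR 3.32.1 and limma 3.46.0 and named GRCh37 (hg19). For libraries of a related AMO1 experiment the study names HTSeqGenie and counts of reads placed unambiguously on exons. For these libraries the counting tool and strand setting are not given in the sources used here. The deposited counts were not normalized. The deposited log2 values equal edgeR log2 CPM (TMM, prior count 2) within 4.97e-14 for 18401 genes. They served for an alternative only.

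Counts were tested in R 4.3.3 with edgeR 4.0.16: filterByExpr (count minimum 10), TMM and the quasi-likelihood F test, with Benjamini-Hochberg adjustment over all genes tested and a threshold of 0.05. Changes against 0 h were fitted on the 12 libraries of a clone, and differences between clones or hairpins on all 48. An SE is the log2 fold change divided by the root of F. The script was tested on simulated data. Libraries held 19177855 to 40767202 counts; PPAN and NHP2 had the lowest levels of the 44 genes. Replicates were cultures grown in triplicate. No replicates agreed within counting noise. Alternatives were all 48 or only the 6 libraries compared, DESeq2 1.42.0, no filter, limma 3.58.1 on the log2 table, a replicate block and leaving out each library.

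The genes and lists were chosen with earlier results of these data known. Values in every library are given for genes past the threshold in both shIRE1 clones at 72 h with the same direction (the 5 largest mean falls and up to 3 rises), the largest changes in each shXBP1 clone, and the 2 largest differences between the shIRE1 clones. Promoters are from RefSeq on GRCh38.p14, not the build of the counts. In GENCODE 44, 21 of the 44 genes share an exon with, or are crossed by, another gene and 10 hold snoRNA genes, so their counts are less certain.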

Additional observations from a re-analysis of the deposited data

Results flagged for a closer look

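At 72 h the response to shIRE1 differed from that to shXBP1, by the test of the difference itself, for 7 of the 10 genes whose values were given in every library. These genes were picked by their changes in the same libraries, so the calls are not independent of the choice. The adjusted p rests on the spread between libraries of a group and leaves out variation between clones. Of all genes tested, 27.4% were more negative with shIRE1 and 28% less negative. The log2 difference of responses was -0.69 for NOP58, -0.68 for DDX21, -0.65 for NPM1, -0.57 for GAR1 and -0.52 for DDX18, all more negative with shIRE1. POLR1B differed by 0.18, a call that was lost without replicate 2 (edgeR adjusted p = 0.0712) and when shIRE1 clone 1 was set against shXBP1 clone 1 alone (0.11, edgeR adjusted p = 0.294). NOP2 differed by -0.16 (edgeR adjusted p = 0.0300). That call was lost when the shXBP1 clone 18 library that resembled clone 1 was left out (-0.11, edgeR adjusted p = 0.0818). It was also lost with no filter (edgeR adjusted p = 0.0971), without replicate 2 (0.228) and without replicate 3 (0.161).

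Between the shIRE1 clones, the responses at 72 h differed for NOP2 (-0.74), NHP2 (-0.72) and DDX18 (-0.32), each more negative in clone 1. Of all genes tested, 12% were more negative there and 15.5% less negative. NOP2 and NHP2 were picked by this same difference, so their calls add nothing to it. The difference contains the 0 h libraries of both clones, which already differed.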

How the results depend on the processing

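Of 1850 repeats over 10 genes and 15 comparisons under another setting, 1753 kept both the direction and the side of the threshold, 55 lost the call, 42 gained one and none reversed. With only the 6 libraries compared, 13 rather than 22 of the 44 genes were called in shXBP1 clone 1 at 24 h, where fewer libraries estimate the spread. In shXBP1 clone 18 at 24 h the count of 0 became 1 with all 48 libraries, 1 with DESeq2 and 1 with only the 6 libraries. At 48 h it became 1 with all 48 libraries, DESeq2 or no filter and 3 with the 6 libraries. At 72 h the count of 1 became 2 with DESeq2, 4 with no filter and 0 with the 6 libraries. Leaving out a library gave 0 to 1, 0 to 1 and 0 to 5 at these times. It gave 31 to 38 in shIRE1 clone 1, 19 to 29 in clone 3 and 18 to 28 in shXBP1 clone 1. The shares of all genes called in these fits are not given here, and they also move with the setting. In shXBP1 clone 18 at 48 h, 3.5% of all genes fell and 2.28% rose in the main fit. Without 72 h replicate 3 these shares were 7.16% and 5.78%. The counts in this paragraph thus describe the settings and are no result about the 44 genes.

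The replicate numbers did not pair the samples: correlations of same-numbered deviations ran from -0.81 to 0.67. A replicate block changed the counts only slightly, for example from 22 to 19 in shXBP1 clone 1 at 24 h and from 28 to 27 at 72 h in shIRE1 clone 3. The shares of all genes in the block fits are not given. PPAN, at the lowest level of the 44 genes, rests on the fewest counts.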
